A study of Mus musculus with 10 samples.

Results

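Replication-dependent histone genes were examined in E10.5 mouse cortex, in Magoh-Mos2 heterozygous embryos (5 arrays) and in wild-type embryos (5 arrays), with C57BL/6 given as the genetic background of both genotypes. The Magoh protein is part of the core of the exon junction complex, which splicing deposits on mRNA just upstream of each joined pair of exons. Total RNA from the paired cortices of each embryo was hybridised to whole-transcript Affymetrix 1.0 ST arrays, and values are log2 RMA levels, that is, background-corrected and normalised signals on a log2 scale. Litters were not given in the labels and could not be tied to the arrays. The members were all probe sets whose deposited title names a gene of a histone cluster. They numbered 66 of 28943 probe sets that were not array controls, and named 44 genes. Of these probe sets, 6 belonged to linker histone H1, 21 to H2a, 14 to H2b, 13 to H3 and 12 to H4. The genes lie mainly in the large Hist1 cluster of chromosome 13 (51 probe sets), with 11 probe sets for chromosome 3, 3 for chromosome 11 and 1 for chromosome 6.

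Core histones H2A, H2B, H3 and H4 form the protein spool around which DNA winds, and H1 binds the DNA that enters and leaves it. The replication-dependent genes are transcribed in S phase, when new DNA must be packaged, and most have no introns. Their mRNAs end in a stem-loop and not in a poly(A) tail, so their making, export and decay follow a route of their own through the stem-loop binding protein. An mRNA that was never spliced is not loaded with exon junction complexes, and the comparison asks how such mRNAs stand in Magoh mutant cortex. In the RefSeq gene table (GRCm38.p6), the 44 genes had a median length of 502 bases, and 40 were shorter than 1000 bases. The exceptions were the H2b genes Hist1h2be (37455 bases), Hist1h2bp (14079 bases), Hist1h2bc (8282 bases) and Hist2h2be (2667 bases). Whether mRNAs of these longer genes are spliced was not examined, so they may not share the lack of exon junction complexes.

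The classes differ in the short elements of their promoters, which is why 1 promoter each of H1, H2a, H2b and H4 is shown. RefSeq promoter windows (GRCm38.p6, 250 bases before to 50 after the start) were found for 38 of the 44 genes, in 39 windows, and were searched on both strands. The box CCAAT was held by all 6 H1, all 10 H2a, all 10 H2b and all 5 H3 windows but by 2 of 8 H4 windows, against 37.4% of all 32851 windows of the table. The octamer ATTTGCAT was held by 5 of 10 H2a and 6 of 10 H2b windows and by 0 of 6 H1, 0 of 5 H3 and 0 of 8 H4 windows, against 1.74% of all windows. The letters AAACACA, an element known from H1 promoters, were held by 5 of 6 H1, 2 of 10 H2a, 2 of 10 H2b, 0 of 5 H3 and 0 of 8 H4 windows, against 7.18% of all. GGTCC, known from H4 promoters, was held by all 8 H4 windows and by 1 of 6 H1, 1 of 10 H2a, 2 of 10 H2b and 2 of 5 H3 windows, but it is short and occurred in 45.5% of all windows. TATAAA was held by 21 of 39 histone windows (53.8%), against 13.6% of all. The 250 bases before the start are printed 5′ to 3′ on the strand of the gene for Hist1h1e (chr13:23622559-23622808, minus strand), Hist1h2ab (chr13:23750838-23751087, plus strand), Hist2h2bb (chr3:96269450-96269699, plus strand) and Hist4h4 (chr6:136804432-136804681, minus strand). Capitals mark AAACACA as well as CCAAT and TATAAA in Hist1h1e, the octamer and CCAAT in Hist1h2ab and Hist2h2bb, and GGTCC in Hist4h4, on either strand. The AAACACA and the TATAAA of Hist1h2ab are left in lower case.
Hist1h1e: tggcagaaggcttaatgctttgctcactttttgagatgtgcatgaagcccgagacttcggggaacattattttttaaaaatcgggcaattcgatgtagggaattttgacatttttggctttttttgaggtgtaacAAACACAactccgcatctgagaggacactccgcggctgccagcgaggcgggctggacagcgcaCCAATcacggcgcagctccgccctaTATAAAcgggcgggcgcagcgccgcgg
Hist1h2ab: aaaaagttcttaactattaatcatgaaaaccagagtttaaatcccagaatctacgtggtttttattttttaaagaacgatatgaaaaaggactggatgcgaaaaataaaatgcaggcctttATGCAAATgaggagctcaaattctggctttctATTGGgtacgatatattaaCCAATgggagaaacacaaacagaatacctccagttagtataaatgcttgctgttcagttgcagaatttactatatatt
Hist2h2bb: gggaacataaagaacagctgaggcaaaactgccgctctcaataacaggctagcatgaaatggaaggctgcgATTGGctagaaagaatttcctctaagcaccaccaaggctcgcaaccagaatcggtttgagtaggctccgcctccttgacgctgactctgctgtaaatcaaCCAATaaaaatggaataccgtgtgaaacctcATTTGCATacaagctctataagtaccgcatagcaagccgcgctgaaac
Hist4h4: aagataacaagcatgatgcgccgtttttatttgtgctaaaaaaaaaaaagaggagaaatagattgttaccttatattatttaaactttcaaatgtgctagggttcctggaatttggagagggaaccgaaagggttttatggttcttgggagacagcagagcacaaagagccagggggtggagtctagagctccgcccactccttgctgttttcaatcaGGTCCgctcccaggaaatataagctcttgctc
In Hist2h2bb the octamer starts 48 bases before the start site, and in Hist1h2ab it is reversed and starts at 129 bases. A match describes the letters of the window and was not tested as a binding site.

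Magoh itself measured 10.31, 10.30, 10.37, 10.17 and 9.92 in the 5 mutants and 11.07, 11.08, 11.14, 11.06 and 10.90 in the 5 wild types. The genotypes did not overlap, and the difference of -0.84 (SE 0.08; limma, adjusted p = 0.000331) put mutants at 0.559 of the wild-type level. Of the progenitor genes that mark early cortex, 16 of 20 lay above 8.57, the 95th percentile of the array's negative controls averaged over arrays. The negative controls had medians between 5.34 and 5.82 on the 10 arrays, and 95th percentiles between 8.37 and 8.86, the highest being that of mutant array 1. Arrays have no read depth, and their number limits the precision. RMA removes any shift common to all genes of an array. In whole tissue, fewer cells of a type and less RNA per cell cannot be told apart.

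No replication-dependent histone probe set passed the test in either direction in Magoh mutant cortex. Of the 66 probe sets, 0 were called higher and 0 lower (limma, adjusted p under 0.05), where 0.301% of all probe sets were called, 0.142% higher and 0.159% lower. The smallest adjusted p among the histones was 0.405, for Hist1h1d (limma). At an unadjusted p under 0.05 there were 4 histone probe sets, or 6.06%, against a background of 8.41%. All 4 were lower in mutants (background 4.31% lower, 4.1% higher). By overlap, 0 histone probe sets had every mutant above every wild type and 1 had every mutant below, where the background was 1.22% and 1.21%, so the share was near the background.

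Over all 66 probe sets, differences (mutant minus wild type) were above 0 for 33 and below 0 for 33, with a range of -0.25 to 0.16. Those counts include 30 probe sets of 8 genes that had several probe sets each. Over the 36 genes with 1 probe set, 11 differences were above 0 and 25 below, with a median of -0.05, and with the brightest probe set of each gene the median was -0.032. This split does not fully separate near-identical copies, since Hist1h2af, with 1 probe set, moved like Hist1h2ao from array to array. Over all probe sets tested the median difference was 0.00, with quartiles of -0.06 and 0.06, and over the histones the quartiles were -0.07 and 0.05. The 95% interval of every one of the 66 differences lay within a 1.5-fold change in either direction (0.58 on the log2 scale), and 51 lay within 1.2-fold (0.26). RMA tends to compress fold changes, and 16 of the 66 probe sets did not exceed 8.57 in both genotypes, so that their signal can include background. Of the other 50, 44 had intervals within 1.2-fold. Of these 50, 30 had a mean level of 13 or above and carried the titles of only 11 genes. The 44 intervals are therefore not all separate measurements. The highest mean level of any probe set tested was 14.49, so these 30 lay near the top of the signal range. Whether signals there were compressed further was not tested. The other 159 probe sets at 13 or above also kept to differences of -0.21 to 0.15. Narrow intervals at these levels therefore do not show that each gene was unchanged.

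**Figure D1:**
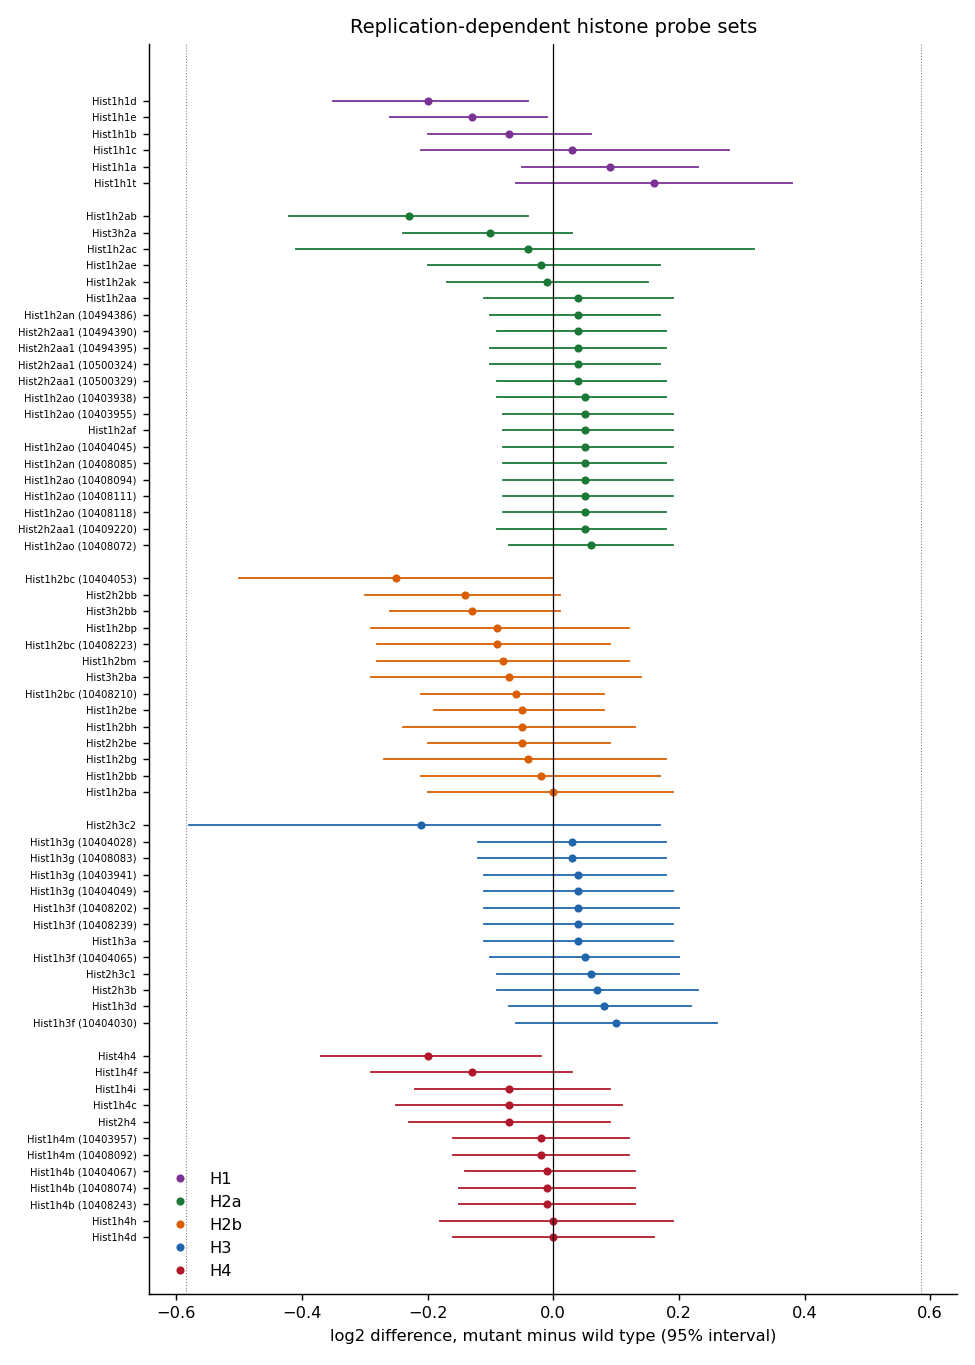
Log2 difference (mutant minus wild type) with its 95% interval for each of the 66 histone probe sets, grouped by class and ordered by difference; dotted lines mark a 1.5-fold change. H2b points lie at or below 0, while the tight run of H2a points just above 0 comes mostly from probe sets of Hist1h2ao and Hist2h2aa1.

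Of the 4 histone probe sets with an unadjusted p under 0.05, 2 were linker histones, and these are described first. Hist1h1d, which encodes a somatic H1, measured 6.13, 6.25, 6.37, 6.29 and 6.21 in mutants and 6.65, 6.46, 6.41, 6.32 and 6.39 in wild types. Mutant array 3 lay above wild-type array 4 and the others were lower than every wild type. The difference was -0.20 (SE 0.07), with an unadjusted p of 0.0169 over all probe sets in limma and an adjusted p of 0.405. Hist1h1e, another somatic H1, measured 8.20, 8.15, 8.17, 8.12 and 8.04 in mutants and 8.25, 8.38, 8.26, 8.22 and 8.24 in wild types. It was the 1 histone probe set whose genotypes did not overlap, by a narrow margin, with a difference of -0.13 (SE 0.06; limma, adjusted p = 0.553). Both probe sets lay below 8.57, where the signal can include background.

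The other H1 genes gave both directions. Hist1h1b, with a mean of 12.85 ± 0.07 in mutants and 12.92 ± 0.05 in wild types, had a difference of -0.07. Hist1h1a averaged 12.54 ± 0.11 in mutants and 12.45 ± 0.06 in wild types (0.09), and Hist1h1c averaged 8.86 ± 0.28 in mutants and 8.83 ± 0.11 in wild types (0.03; SD, n = 5 throughout). Hist1h1t, the testis-type H1, had the highest difference of all members, 0.16 (SE 0.10; limma, adjusted p = 0.757). It measured 5.96, 5.92, 5.97, 5.83 and 6.49 in mutants and 5.94, 5.87, 5.92, 5.78 and 5.87 in wild types, a level at which negative controls are found. The difference rested on mutant array 5, and was 0.04 without that array. Of the 6 H1 probe sets, 3 were above 0 and 3 below, with a median of -0.02.

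**Figure D2:**
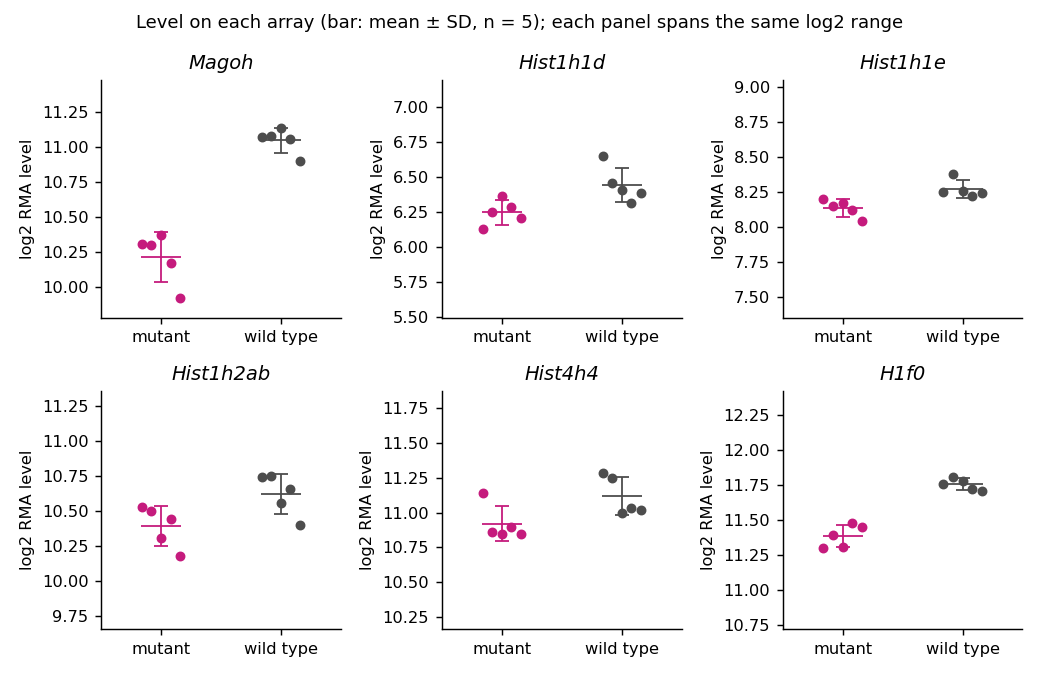
Log2 RMA level on each array for Magoh, the 4 histone genes with an unadjusted p under 0.05 and H1f0, with mutants left of wild types; bars give the mean and SD (n = 5), and each panel spans the same log2 range. Magoh and H1f0 show a clear gap between genotypes, the gap of Hist1h1e is narrow, and in Hist1h1d, Hist1h2ab and Hist4h4 the points of the genotypes overlap.

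Among the H2a genes, Hist1h2ab had the lowest difference. It measured 10.532, 10.502, 10.305, 10.443 and 10.176 in mutants and 10.744, 10.746, 10.563, 10.658 and 10.396 in wild types. Of the mutant values, 3 lay above the lowest wild type, array 5. The difference was -0.23 (SE 0.09), or 0.853 of the wild-type level, with an unadjusted p of 0.0191 in limma and an adjusted p of 0.432. Next came Hist3h2a of chromosome 11, at 11.27 ± 0.09 in mutants and 11.37 ± 0.06 in wild types, with a difference of -0.10 (limma, adjusted p = 0.745). Most H2a probe sets lay slightly above 0, the highest being the Hist1h2ao probe set 10408072 with 13.69 ± 0.06 in mutants and 13.63 ± 0.08 in wild types (0.06; limma, adjusted p = 0.869). In all, 16 of 21 were above 0 and the median was 0.04, but under quantile normalization the H2a median was -0.003. The dimmest H2a probe set, Hist1h2ac, averaged 4.75 ± 0.34 in mutants and 4.80 ± 0.35 in wild types. Hist1h2aa, whose product is a testis H2A, averaged 8.73 ± 0.10 in mutants and 8.68 ± 0.09 in wild types.

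Many H2a values are not separate measurements of separate genes. Of the 44 genes, 8 had several probe sets, 30 in all, and histone genes occur in near-identical copies, so that a probe can match several. Which copy such a probe set reads is uncertain. Hist1h2ao had 7 probe sets with differences of 0.05 to 0.06, Hist2h2aa1 had 5 with 0.04 to 0.05 and Hist1h2an had 2 with 0.04 and 0.05. These probe sets moved alike from array to array: in Hist2h2aa1 probe set 10409220, for example, the level was 13.69, 13.71, 13.62, 13.73 and 13.80 in mutants and 13.57, 13.80, 13.67, 13.63 and 13.64 in wild types. Mutant array 5 and wild-type array 2 were highest and shared the value 13.80. Over the H2a genes with 1 probe set the median was -0.019.

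The H2b class was the most uniform in sign, with 0 of 14 differences above 0 and a median of -0.07. The median stayed between -0.101 and -0.034 when any 1 array was left out. Hist1h2be and the Hist1h2bc probe set 10408210 moved alike from array to array, so the 14 are not all separate measurements. None passed the test, and 7 of the 14 had mean levels not above 8.57, where the signal can include background. The lowest difference was that of the Hist1h2bc probe set 10404053, which was among these 7. It measured 6.06, 6.27, 6.03, 6.42 and 6.01 in mutants and 6.37, 6.57, 6.32, 6.72 and 6.04 in wild types. The genotypes overlapped, and the difference was -0.25 (SE 0.12; limma, adjusted p = 0.603). Other probe sets of the same gene gave smaller differences: 10408210 averaged 12.83 ± 0.10 in mutants and 12.89 ± 0.08 in wild types (-0.06), and 10408223 averaged 3.86 ± 0.09 in mutants and 3.95 ± 0.19 in wild types (-0.09).

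Hist2h2bb of chromosome 3 measured 9.98, 9.84, 9.77, 9.89 and 9.91 in mutants and 10.14, 10.16, 9.95, 10.01 and 9.85 in wild types. All but mutant array 1 lay below the second-lowest wild type, and the difference was -0.14 (SE 0.07; limma, adjusted p = 0.646). Hist3h2bb, which RefSeq lists as a transcribed pseudogene, measured 8.93, 9.05, 8.92, 8.88 and 8.96 in mutants and 9.15, 9.17, 9.02, 9.09 and 8.94 in wild types, with a difference of -0.13 (SE 0.06; limma, adjusted p = 0.641). Here too the genotypes overlapped. The testis H2B gene Hist1h2ba, at 6.78 ± 0.10 in mutants and 6.79 ± 0.19 in wild types, stood at the other end of the class with a difference of -0.00. The remaining H2b genes, Hist1h2bb, Hist1h2be, Hist1h2bg, Hist1h2bh, Hist1h2bm, Hist1h2bp, Hist2h2be and Hist3h2ba, had differences between -0.09 and -0.02.

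Among the H3 probe sets 12 of 13 were above 0, with a median of 0.04, although under quantile normalization the H3 median was -0.010. Of the 13, 3 had mean levels not above 8.57, where the signal can include background. The other 10 carried the titles of 5 genes and moved alike, so they cannot be counted as 10 separate measurements. In each of the 10, wild-type array 1 was the lowest and wild-type array 2 the highest of all arrays. The brightest, Hist1h3f probe set 10404065, measured 13.91, 13.87, 13.72, 13.86 and 13.91 in mutants and 13.64, 13.99, 13.82, 13.83 and 13.76 in wild types, and its difference was 0.05. The lowest and the highest value were both wild types, so the mutant arrays lay inside the wild-type spread. The other Hist1h3f probe sets differed by 0.04 to 0.10, the highest being 10404030, which averaged only 4.28 ± 0.09 in mutants and 4.18 ± 0.14 in wild types (limma, adjusted p = 0.794). The 4 probe sets of Hist1h3g differed by 0.03 to 0.04, Hist1h3a by 0.04, Hist2h3c1 by 0.06, Hist2h3b by 0.07 and Hist1h3d by 0.08.

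The exception among the H3 genes was Hist2h3c2, with the widest interval of any member. It measured 7.33, 7.29, 8.19, 7.18 and 7.01 in mutants and 7.67, 7.53, 7.52, 7.91 and 7.41 in wild types. Mutant array 3 was above every wild type and the other mutants were below every wild type. The difference was -0.21 (95% interval -0.58 to 0.17; limma, adjusted p = 0.831), and single arrays moved it both ways. It was -0.40 without mutant array 3 (limma, adjusted p = 0.181), -0.11 without mutant array 5, -0.13 without wild-type array 4 and -0.05 without mutant arrays 1 and 5 together. The level lay below 8.57.

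For H4, whose genes all encode nearly the same short protein, 2 of 12 differences were above 0 and the median was -0.02. Hist4h4, which lies alone on chromosome 6 away from the clusters, was lowest. It measured 11.138, 10.861, 10.848, 10.903 and 10.848 in mutants and 11.282, 11.253, 10.996, 11.027 and 11.024 in wild types. Mutant array 1 overlapped the wild types and the other mutants did not. The difference was -0.20 (SE 0.08), with an unadjusted p of 0.029 in limma and an adjusted p of 0.5. Without mutant arrays 1 and 5 together it was -0.25 with an adjusted p of 0.15 (limma), the smallest of any member under any setting run. That setting was chosen after the data were seen and leaves out the only mutant that overlapped, so its lower p is no added support.

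Hist1h4f followed, at 11.98 ± 0.11 in mutants and 12.12 ± 0.12 in wild types (-0.13; limma, adjusted p = 0.698), and then Hist2h4 at 11.95 ± 0.12 in mutants and 12.02 ± 0.10 in wild types (-0.07). Hist1h4c and Hist1h4i also differed by -0.07, and Hist1h4d and Hist1h4h by 0.00. The 3 probe sets of Hist1h4b each differed by -0.01, the brightest of them at 13.45 ± 0.07 in mutants and 13.45 ± 0.09 in wild types. The 2 probe sets of Hist1h4m held the same values on every array and count as 1 measurement (-0.02). A further probe set titled only as similar to histone H4 falls outside the title rule. It matched the gene H4c11 and averaged 8.21 ± 0.12 in mutants and 8.38 ± 0.18 in wild types (-0.17; limma, adjusted p = 0.663).

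Class means on each array show how far single embryos moved all members together. Each probe set was first set relative to its wild-type mean. The H2b mean was 0.01, -0.06, -0.11, -0.06 and -0.17 in mutants and 0.07, 0.12, -0.09, 0.03 and -0.13 in wild types. The genotypes overlapped, and the lowest wild type lay below all but 1 mutant. The H4 mean was 0.06, -0.09, -0.15, -0.04 and -0.02 in mutants and -0.01, 0.15, -0.05, -0.02 and -0.07 in wild types. Wild-type array 2 was the highest of all 10 arrays for H2a, H2b, H3 and H4. Over all 66 members it stood at 0.12, where the other wild types lay between -0.06 and -0.01 and the mutants between -0.06 and 0.05.

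**Figure D3:**
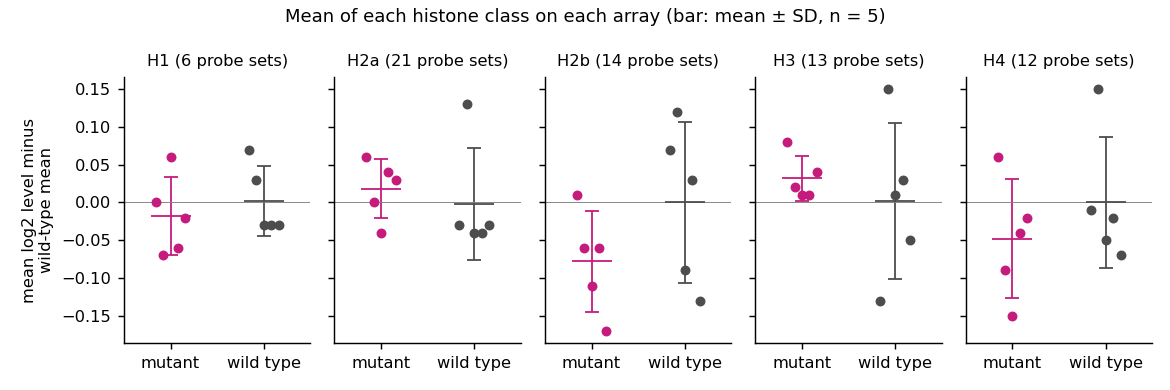
Mean of each histone class on each array, as log2 level minus the wild-type mean of each probe set, with mutants left of wild types; bars give mean and SD (n = 5). The genotypes overlap in all 5 classes, and 1 wild-type array is highest in H2a, H2b, H3 and H4.

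Differences were also set beside the signal of each probe set. Signals of different probe sets depend on their probes and do not order the genes by expression, so the split is a technical description, chosen after the values were seen. At a mean level of 13 or above there were 189 of all probe sets tested, and 30 of them (15.9%) were histones. These 30 carried the titles of 11 genes, and 25 were above 0, with a median of 0.04. The split followed class: all 15 bright H2a and all 10 bright H3 probe sets were above 0, and 0 of 5 bright H4 probe sets were. Of the 36 histone probe sets below 13, 28 were below 0, with a median of -0.07, while in H3 2 of 3 were above 0. The other 159 probe sets at 13 or above had 127 above 0 and a median of 0.06. On the arrays, the mean of the bright histones was 0.06, 0.03, -0.08, 0.05 and 0.11 in mutants and -0.10, 0.15, -0.00, -0.02 and -0.03 in wild types, which overlapped. The part of signal strength in these differences was not tested.

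**Figure D4:**
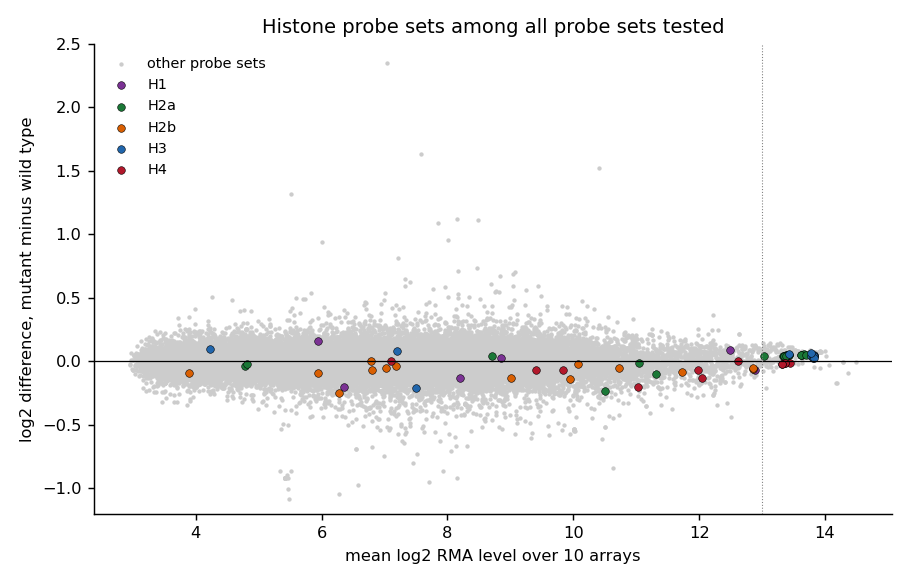
Log2 difference (mutant minus wild type) against the mean log2 level over the 10 arrays for all 28943 probe sets tested, with the histone probe sets coloured by class; the dotted line marks a level of 13. Histones reach 13.83 and stay within -0.25 to 0.16, inside the cloud of other probe sets.

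Genes that make and mature histone mRNA did not pass the test either. Of 14 measured, 0 rose and 0 fell, 0 had an unadjusted p under 0.05, and the median difference was -0.02 (limma, smallest adjusted p = 0.752). Slbp, which binds the stem-loop, measured 9.54, 9.86, 9.80, 9.78 and 9.55 in mutants and 9.86, 9.69, 9.80, 9.83 and 9.74 in wild types, a difference of -0.08. Npat, the coactivator of histone gene transcription, differed by 0.02, Casp8ap2, which acts in the same nuclear body, by -0.07, and the cap-binding genes Ncbp1 and Ncbp2 by 0.08 and -0.11. Lsm11 of the U7 particle differed by -0.04, the coilin gene Coil by -0.09 and the 3′ end cleavage factor Cstf2 by 0.09. Mutant array 1 was low for this group, with a mean of -0.13 against -0.04 to 0.07 on the other mutants and -0.03 to 0.04 on wild types.

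Of 9 genes of histone mRNA decay, 0 rose and 0 fell, with a median of 0.00. Exosc10 of the nuclear exosome differed by 0.16 (limma, adjusted p = 0.493) and Upf1, which acts both in nonsense-mediated decay and in the removal of histone mRNA at the end of S phase, by 0.15 (limma, adjusted p = 0.608). Zcchc11, a terminal uridylyltransferase, differed by -0.11. Of 19 measured histone chaperone and import genes 0 rose and 0 fell, with a median of -0.02. Ipo4, an importin that carries histones, gave the smallest p of that list, with a difference of 0.25 (limma, adjusted p = 0.134), followed by Atrx at -0.24 and the chromatin assembly subunit Chaf1b at 0.10. Atrx measured 8.96, 9.83, 9.85, 9.80 and 9.41 in mutants and 9.85, 9.70, 9.92, 9.82 and 9.77 in wild types, so that mutant arrays 1 and 5 were low and the other mutants lay among the wild types. Mutant array 1 also had the lowest list mean of the 10 arrays for decay (-0.17), chaperone (-0.24) and S phase genes (-0.13). Of 40 S phase genes 0 rose and 0 fell, with a median of 0.00. The licensing gene Orc1 averaged 7.36 ± 0.21 in mutants and 7.07 ± 0.07 in wild types (0.29; limma, adjusted p = 0.273), and Ccne1, the cyclin of S phase entry, averaged 10.40 ± 0.08 in mutants and 10.21 ± 0.07 in wild types (0.19; limma, adjusted p = 0.327). The level of Orc1 lay below 8.57, where the signal can include background. Cdt1, which loads the replicative helicase, differed by 0.14.

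Of 12 measured replication-independent histones, whose genes are expressed outside S phase as well, 1 was called. Over all probe sets 0.301% were called, 0.159% lower, and 0 of 66 clustered histone probe sets is near that share. H1f0, the linker histone of slowly dividing and differentiating cells, fell. It measured 11.30, 11.39, 11.31, 11.48 and 11.45 in mutants and 11.76, 11.81, 11.78, 11.72 and 11.71 in wild types. The genotypes did not overlap, and mutants stood at 0.773 of the wild-type level (difference -0.37, SE 0.06; limma, adjusted p = 0.0122). With the replicate number as a block the adjusted p was 0.0653 (limma), and without wild-type array 2 it was 0.0601.

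Of the 12 genes measured in that group, 1 fell, 0 rose and 10 had differences below 0, with a median of -0.14. H2afx, whose product is phosphorylated at DNA breaks and whose mRNA is known in both stem-loop and polyadenylated forms, measured 10.40, 10.25, 10.18, 10.48 and 10.32 in mutants and 10.59, 10.68, 10.63, 10.73 and 10.52 in wild types. These did not overlap, and the difference was -0.30 (SE 0.07; limma, adjusted p = 0.1). H1fx differed by -0.25, H2afv by -0.19, and H2afz and H3f3a by -0.17 each, with adjusted p-values of 0.296, 0.469, 0.381 and 0.404 in limma. The variant H2afj went the other way, at 7.98 ± 0.08 in mutants and 7.73 ± 0.05 in wild types (0.25; limma, adjusted p = 0.13), also without overlap. Its level lay below 8.57, where the signal can include background. The mean of the 12 was -0.14, -0.09, -0.19, -0.08 and -0.10 in mutants and 0.02, 0.03, -0.02, 0.03 and -0.05 in wild types, so every mutant lay below every wild type. The mean of the neuron genes described below separated the genotypes in the same way. That replication-independent and clustered histones differ in their response was not tested.

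**Figure D5:**
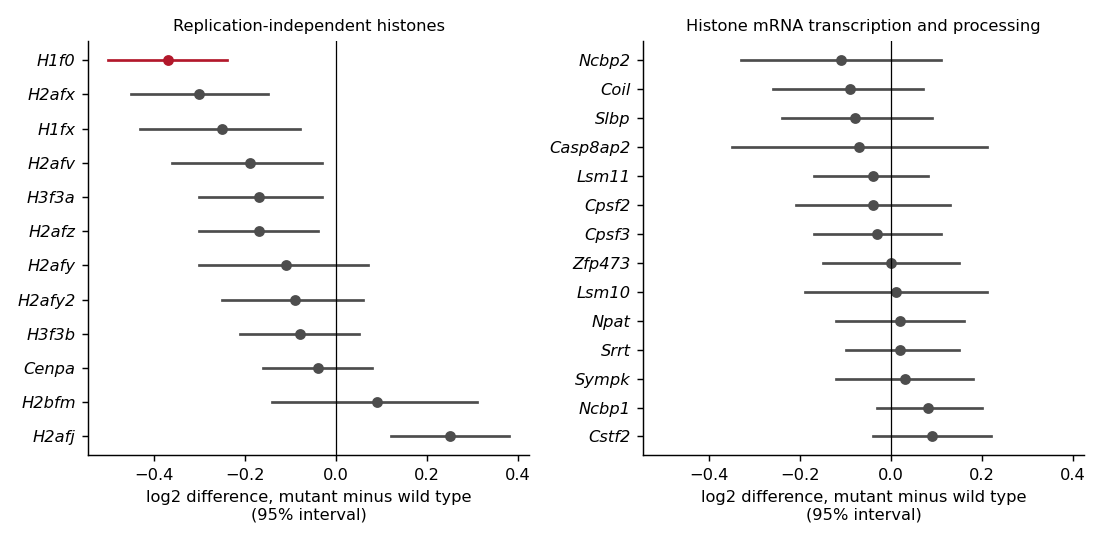
Log2 difference (mutant minus wild type) with 95% interval for 12 replication-independent histone genes (left) and 14 genes of histone mRNA transcription and processing (right); red marks an adjusted p under 0.05. H1f0 at -0.37 is the 1 red point, and 10 of 12 points on the left lie below 0, against 7 of 14 on the right.

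Markers of cell types moved beside these values. Over all probe sets, 0.142% were called higher and 0.159% lower. Of 25 neuron genes 5 fell and 0 rose, with a median of -0.26, and 20 differences were below 0 and 5 above. Their mean lay between -0.49 and -0.13 in mutants and between -0.10 and 0.15 in wild types. Those called were Tubb3 (-0.61), Map2 (-0.53), Tbr1 (-1.05), Slc17a6 (-0.97) and Elavl4 (-0.52). Of the 25 neuron genes, 20 had mean levels not above 8.57, where signal can include background, among them Tbr1, Slc17a6 and Elavl4. Of 20 progenitor genes Lin28a rose (0.60) and Fabp7 (-0.92) and Id4 (-0.41) fell. The list median was -0.16, with 15 differences below 0 and 5 above. Of 20 primitive red cell genes 0 passed the test, but 20 of 20 differences were above 0 and the median was 0.24, with list means of -0.07 to 0.46 in mutants and -0.10 to 0.16 in wild types. Globin genes were strong in both genotypes, with Hbb-y at 13.41 in mutants and 13.31 in wild types. Of 20 endothelial genes 0 passed the test, with a median of 0.12, and of 18 macrophage and 20 mesenchyme genes 0 passed, both with a median of -0.09. The smallest p of these marker lists belonged to Slc4a1 of red cells (0.44), Flt1 of endothelium (0.20), Lyz2 of macrophages (-0.44) and Lum of mesenchyme (-0.39). Levels were not above 8.57 for 14 of 20 red cell, 18 of 20 endothelial, 18 of 18 macrophage and 8 of 20 mesenchyme genes. Flt1, Lyz2 and Lum were among them, and Fabp7 of the progenitor list also averaged below 8.57 over all arrays. The part of these cell types in the histone values was not tested.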

How the data were processed

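Cortex RNA of 5 Magoh mutant and 5 wild-type embryos was measured on 1 array each, which the labels call biological replicates. The deposited values are log2 levels, which the authors made with RMA in Affymetrix Expression Console according to the submitters' processing notes, versions not given. Deposited annotation of another kind (title and Entrez number, per the file headers) named the probe sets, with symbols from the RefSeq gene table (GRCm38.p6). In a second table, 10 per-sample columns have names that match no label and were not used.

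Of 35557 probe sets, 6614 were controls (5222 of them negative) and 28943 were tested, of which 23787 matched a gene. Mutant minus wild type was fitted per probe set by lmFit and eBayes of limma 3.58.1, under R 4.3.3, with no covariate and with Benjamini-Hochberg adjustment over all 28943. Calls needed an adjusted p under 0.05. The fit was tested on simulated data. Summaries used Python 3.11.15.

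The members and lists were chosen with earlier results of these data known. Named are Magoh; in each class the 3 members with the smallest p, the brightest, dimmest, highest and lowest; every probe set of a gene with several; and of related lists the called genes and up to 6 with the smallest p, of which the text keeps 1 for each marker list of other cells. The H4c11 probe set was named outside this rule, as were genes given with a difference for their role. In related lists the brightest probe set stands for a gene. Dim probe sets were kept. Alternatives covered normalization, dim probe sets, variance models, thresholds, probe sets per gene, the replicate number, Y-linked genes as a covariate and leaving out arrays.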

Additional observations from a re-analysis of the deposited data

Results flagged for a closer look

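Of 50 groups of 5 arrays examined, 6 held a value apart from the other 4 by a gap of more than 0.71 of the group's range, and chance alone marks about 1 group in 20. The mean of the H2a members on wild-type array 2 was 0.13, where the other wild types lay between -0.04 and -0.03. The mean of the H4 members on the same array was 0.15, with the others between -0.07 and -0.01. Hist1h1e was also highest there, at 8.38 against 8.22 to 8.26 in the other wild types. Among mutants, Hist1h1t stood at 6.49 on array 5, with the others between 5.83 and 5.97. Hist2h3c2 stood at 8.19 on mutant array 3, with the others between 7.01 and 7.33, and Hist4h4 at 11.14 on mutant array 1, with the others between 10.85 and 10.90.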

How the results depend on the processing

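Under 27 alternatives, 615 values were recomputed, and 0 called values turned round. No histone probe set was called in any fit at an adjusted p under 0.05, 0.01 or 0.1. An unadjusted p under 0.05 gave 4 lower. Leaving out probe sets below the negative controls' 95th percentile gave 0 members without overlap and lower, and an H1 median of 0.034. Of alternatives chosen after seeing the data, leaving out mutant arrays 1 and 5 together gave 2 members without overlap and lower, genes with 1 probe set gave an H2a median of -0.019, and members below a level of 13 gave medians of -0.066 for all and -0.031 for H2a. Leaving out single arrays gave 1 to 3 members without overlap and lower (2 without wild-type array 4, wild-type array 5 or mutant array 1, and 3 without mutant array 3), an H1 median of -0.072 (without mutant array 3) to 0.004 and a median over all members of -0.013 to 0.034. Quantile normalization gave medians of -0.018 for all members, -0.003 for H2a and -0.010 for H3, and centring on array medians gave 0.009, 0.053 and 0.050. H2afx (adjusted p = 0.0236) and H2afj (0.0348) passed limma's test with array weights alone. H1f0 passed in 18 of 20 alternatives, with differences of -0.39 to -0.35, and missed with the replicate block (0.0653) and without wild-type array 2 (0.0601). Deviations of same-numbered arrays correlated by 0.0636, -0.0587, 0.1534, 0.3138 and 0.1621, so the numbers were not taken to pair the arrays. The replicate block gave a median of -0.001 over the histones and 65 calls over all probe sets, against 87 without it, and changed no histone call. The causes of these shifts were not tested.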
